A study of Drosophila melanogaster with 34 samples.

Results

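The results concern 9 genes of Drosophila melanogaster whose expression separated laboratory populations with an ethanol history from control populations: CG14408, Phf5a, CG6733, QC, CG13862, CG13325, Lime, CG10560 and CG5323. They are 9 of the 11982 genes that the platform annotation names by a probe set of their own, and they are read by 11 of the 18769 probe sets of the array, 3 for CG14408 and 1 for each other gene. The genes were picked because the mean levels of the populations E1, E2, M1 and M2 all lay on one side of those of R1 and R2, so the level difference between these populations chose them and is given below as a description, with no test. All 11 probe sets reached a log2 value of 4, the level set here for detection, on all 34 arrays, so none was tested through its higher group alone.

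The ethanol regime (populations E1 and E2) was kept on medium with 12% ethanol, the variable regime (M1 and M2) on vials of both media mixed in each generation, and the control regime (R1 and R2) on standard cornmeal-molasses-agar medium. All 6 populations came from 1 outbred base population, had more than 300 generations of selection behind them and were reared on standard medium before the experiment. Their eggs were then covered for 15 hours with an ethanol solution of 18%, which came to about 12% with the laying medium, or with distilled water, and RNA of pooled groups of 50 to 200 newly hatched first-instar larvae was hybridised. Each regime is represented by 2 populations, which are its only replicates. There are 22 arrays of ethanol-history larvae (12 of the ethanol and 10 of the variable regime) and 12 of control larvae, with 17 arrays per exposure, 5 or 6 arrays per population and 3 extraction days, numbered 1, 2 and 5 in the titles.

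In a selection experiment, replicate populations of 1 origin are held under different conditions, and alleles that help survival, as well as alleles that drift, change in frequency. A transcript level that differs between regimes in all replicate populations, whatever the larvae were exposed to before sampling, is a constitutive difference. A change between ethanol and water within a population is a plastic response to the exposure. Levels are read here as signals of probe sets, and whether a signal followed the transcript level alone was not tested. The 9 genes have little in common by annotation. Phf5a encodes a small subunit of SF3b, the part of the U2 small nuclear ribonucleoprotein that recognises the branch point of introns. QC encodes a glutaminyl cyclase, an enzyme that turns N-terminal glutamine of peptides into pyroglutamate. CG6733 belongs to the aminoacylase-like M20 peptidases, enzymes that split acylated amino acids, and lies in a cluster of such genes. CG10560 belongs to the large insect family of ecdysteroid kinase-like proteins. Lime encodes a zinc finger protein named for linking immunity and metabolism, with a known part in larval blood cell number and energy stores. The genes lie on chromosome arms X (CG14408), 2L (Phf5a), 3L (QC), 3R (CG6733, CG13862 and CG10560) and 2R (CG13325, Lime and CG5323), in the RefSeq gene table used for names.

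Array medians lay between 3.89 and 4.02, and between 9273 and 9400 probe sets reached the detection level. Compared over 9729 tested probe sets with the population means of the other days, all 12 control arrays resembled their own population most, and none of the 22 ethanol-history arrays resembled a control population most. Within the ethanol history the arrays were not told apart by regime: 8 of 22 resembled their own population most, and of the 8 arrays of day 5, 7 resembled the population of the other regime with the same number. Results that set the ethanol against the variable regime therefore rest on doubtful labels on day 5 and are given with and without that day, whereas the grouping into ethanol history and control is the same either way. Values of single ethanol-history populations also include day 5 and carry the same doubt.

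Phf5a, CG6733, QC, CG13862 and CG5323 lay higher in the ethanol-history populations. For Phf5a, the 22 ethanol-history arrays ran from 9.67 through a median of 9.90 to 10.20 log2 units, against 9.24, 9.35 and 9.53 on the 12 control arrays. The lowest ethanol-history array, of ethanol-exposed E2 on day 2, was above the highest control array, of water-exposed R1 on day 1, so the arrays did not overlap. The mean difference, ethanol-history minus control, was 0.54 log2 units or 1.46-fold. Over the 9729 tested probe sets, 0.0411% had every ethanol-history array on one side of every control array (0.0103% above and 0.0308% below), from the contrast that the choice of genes used. Population means of Phf5a were 9.93 ± 0.16 in E1, 9.86 ± 0.14 in E2 (SD, n = 6 each), 9.94 ± 0.09 in M1 and 9.93 ± 0.18 in M2 (SD, n = 5 each), against 9.37 ± 0.12 in R1 and 9.37 ± 0.05 in R2 (SD, n = 6 each). The 4 ethanol-history means differed among themselves by less than the SD within a population, and so did the 2 control means.

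QC ran from 9.91 through 10.64 to 10.97 on the ethanol-history arrays, against 9.24, 9.86 and 10.60 on the control arrays. The arrays overlapped when exposures were pooled, but not within an exposure: among ethanol-exposed larvae the lowest ethanol-history array was at 10.65 and the highest control array at 10.60, and among water-exposed larvae these were at 9.91 and 9.85. How many of all probe sets separate within an exposure was not counted. The choice of genes used this difference, so nothing is read from the separation. The mean difference was 0.63 log2 units or 1.55-fold. CG13862 ran from 9.15 through 9.58 to 10.31, against 9.02 as the median of the control arrays and 9.27 as their highest. Its lowest control array was at 8.41, its difference of 0.63 was 1.54-fold, and 2 water-exposed arrays of day 2, of E2 at 10.23 and M2 at 10.31, were the highest of all.

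CG6733 ran from 9.66 through 10.30 to 10.79 on the ethanol-history arrays, against 8.93, 9.77 and 10.39 on the control arrays, a difference of 0.55 or 1.46-fold. The ranges overlapped in both exposures. CG5323 had the smallest distance of the 9 genes between the nearest populations, 0.28 log2 units, and so lies nearest to the edge of the rule. Its ethanol-history arrays ran from 10.92 through 11.30 to 11.64, against 10.40, 10.94 and 11.25 on control arrays, a difference of 0.33 or 1.26-fold.

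**Figure D1:**
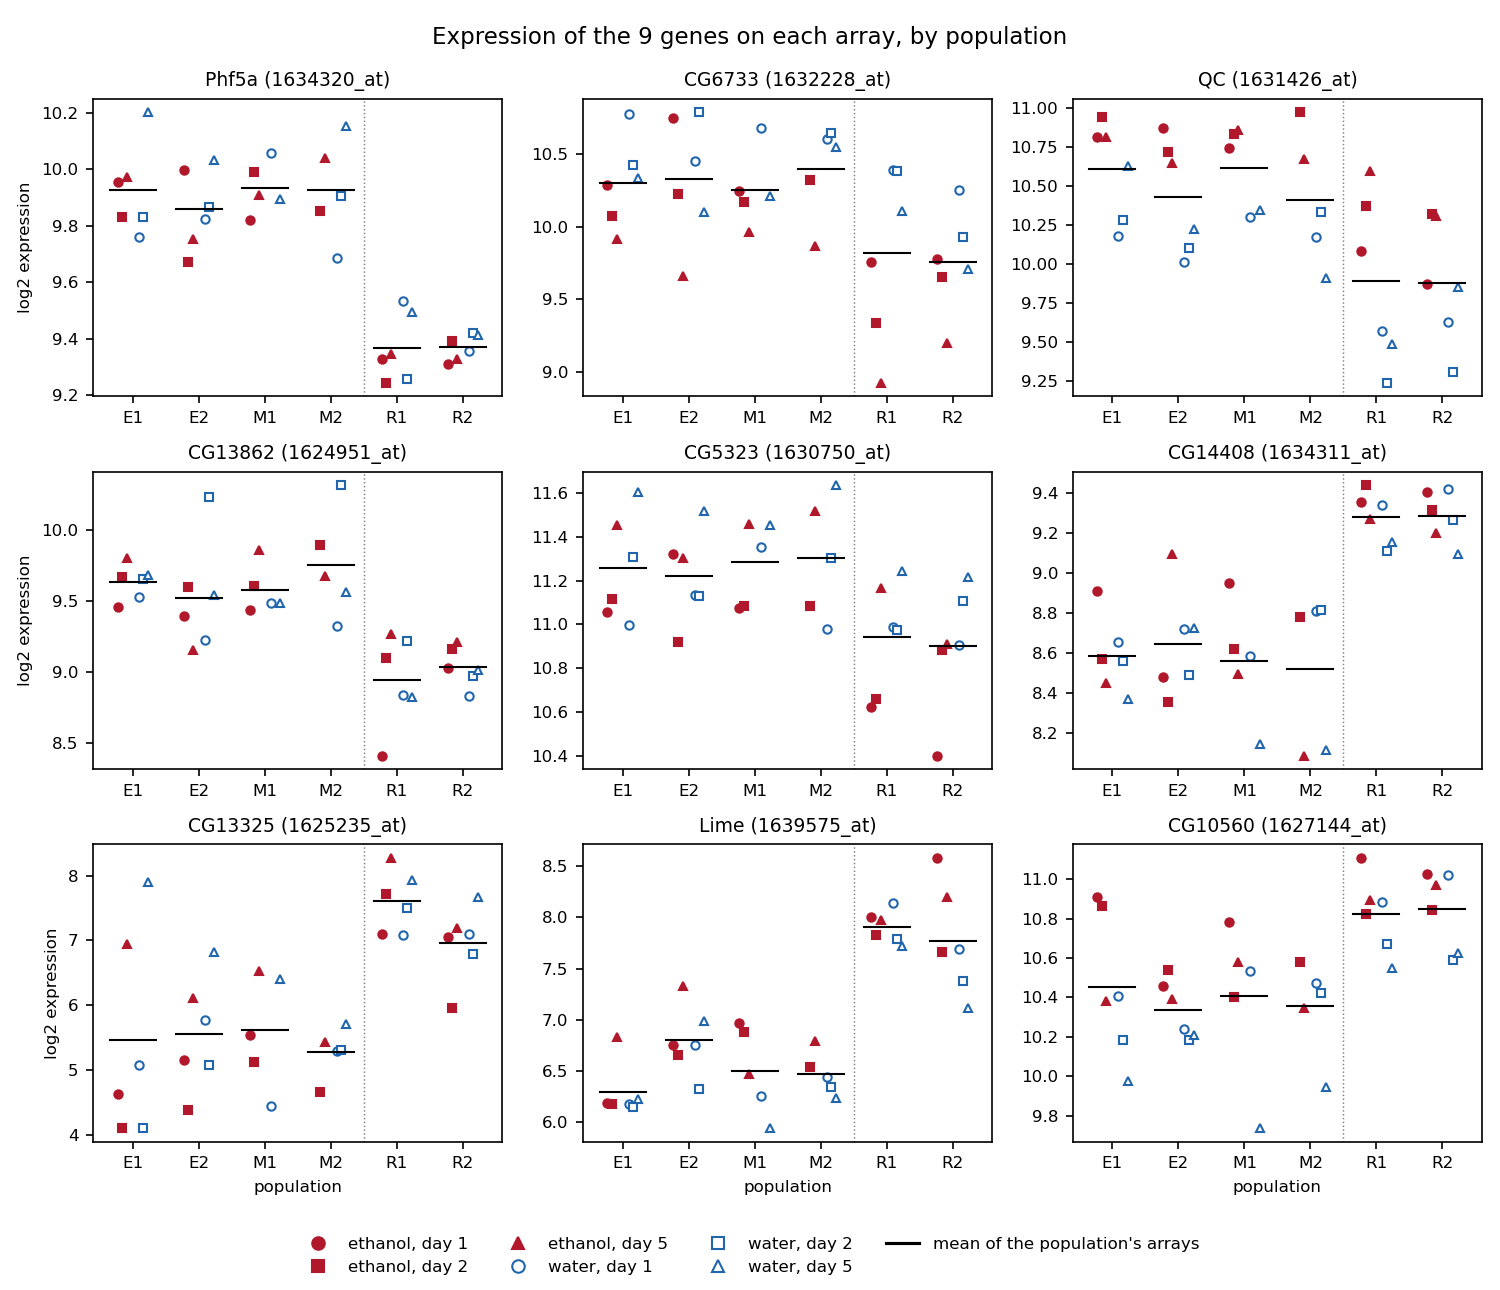
Log2 expression (vertical axis) on each of the 34 arrays by population (horizontal axis), with ethanol-history populations left and control populations right of the dotted line, for the probe set with the highest mean of each gene. Filled red symbols are ethanol-exposed and open blue symbols water-exposed larvae, the symbol gives the extraction day, and bars are population means. Phf5a has no overlap between ethanol-history and control arrays. CG13325 spreads most within a population as labelled, up to 7.91 in E1 on day 5, where regime labels are doubtful.

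CG13325, Lime, CG14408 and CG10560 lay lower in the ethanol-history populations. CG13325 had the largest difference of the 9 genes, -1.88 log2 units or 3.67-fold, the 5th largest in size of the 9729 tested probe sets. Its ethanol-history arrays ran from 4.10 through 5.30 to 7.91, against 5.96, 7.15 and 8.28 on the control arrays. The ranges overlapped through the arrays of day 5: E1 was at 6.95 in ethanol and 7.91 in water on that day, but between 4.10 and 5.08 on days 1 and 2. As labelled, the day 5 arrays of each of the 6 populations lay above all of its arrays of days 1 and 2. The arrays labelled E1 on day 5 resembled M1 most, and M1 lay between 4.45 and 5.54 on days 1 and 2. A rise on day 5 is therefore seen with either label, while its size within E1 is not settled. Population means were 5.46 ± 1.59 in E1, 5.56 ± 0.86 in E2 (SD, n = 6 each), 5.61 ± 0.88 in M1 and 5.28 ± 0.38 in M2 (SD, n = 5 each), against 7.60 ± 0.47 in R1 and 6.96 ± 0.57 in R2 (SD, n = 6 each). The lowest arrays, of E1 on day 2 at 4.10 and 4.11, lay close to the detection level of 4.

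Lime was lower by 1.33 log2 units, a 2.52-fold difference and the 18th largest. Its ethanol-history arrays ran from 5.94 through 6.45 to 7.33, against 7.11, 7.81 and 8.58 on the control arrays. Within each exposure the arrays did not overlap, again with no share over all probe sets to set beside it. Among ethanol-exposed larvae the highest ethanol-history array was at 7.33 and the lowest control array at 7.66, and among water-exposed larvae these were at 6.99 and 7.11. E2 had the highest mean of the ethanol-history populations, 6.80 ± 0.34, and E1 the lowest, 6.29 ± 0.27 (SD, n = 6 each). The E2 mean includes its day 5 arrays, at 7.33 in ethanol, which resembled M2 most, and 6.99 in water, which resembled E2. E2 as the highest is therefore not settled. On days 1 and 2 alone, E1 ran from 6.15 to 6.19, below every other ethanol-history array of those days. The E2 arrays then ran from 6.32 to 6.76.

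Since Lime acts in blood cells, 13 haemocyte markers were read beside it, of which 12 were tested and lz lay below detection. For their levels, 0 of 12 passed between ethanol-history and control populations (limma adjusted p), and 2 had an unadjusted p under 0.05, against 10.5% of all tested probe sets. These 2 were NimC1, a phagocytosis receptor gene, at 7.42 in ethanol-history against 6.68 in control populations, and the peroxidasin gene Pxn at 7.71 against 7.15, both the opposite way to Lime. Population means separated in 3 of the 12, these 2 and the haemocyte gene He, which lay the same way as Lime at 9.30 against 9.57 (limma unadjusted p = 0.0949). The summed level of the 12 markers (sum of unlogged population means) ran from 18327 to 19302 in the ethanol-history and from 18559 to 18769 in the control populations. Col4a1 and vkg, with ethanol-history means of 13.30 and 12.56 log2 units, had the highest levels of the 12. The sum therefore follows mainly these 2 genes and says little about the other markers. The part of the markers in the Lime difference was not tested. Of 7 fat body markers only apolpp and Gbs-70E were tested, too few to speak for the tissue, and 1 of the 2 rose in ethanol. Of 9 midgut markers 7 were tested, and 1 rose and 2 fell. Over all tested probe sets 15.2% were higher and 16.0% lower in ethanol. Neither list had a called level difference, and neither had any tested probe set (0%). In whole larvae, fewer cells of a type and less RNA per cell cannot be told apart.

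CG10560 was lower by 0.44 log2 units or 1.36-fold, with ethanol-history arrays running from 9.74 through 10.41 to 10.91, against 10.55, 10.86 and 11.11 on control arrays. Among water-exposed larvae its arrays did not overlap, with 10.54 as the highest ethanol-history and 10.55 as the lowest control array. A share over all probe sets was not counted for this either. Among ethanol-exposed larvae the arrays of E1 on days 1 and 2, at 10.91 and 10.87, lay within the control range of 10.83 to 11.11.

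The differences were also read within each of the 6 combinations of day and exposure, where a population has at most 1 array. For Phf5a, QC, Lime and probe set 1634311_at of CG14408, the ethanol-history arrays lay on their side of both control arrays in 6 of 6 combinations, and for CG6733, CG13862, CG13325, CG10560 and CG5323 in 5 of 6. Over all tested probe sets, 0.216% did so in 6 of 6 and 0.853% in at least 5 of 6, but the choice of members used this same level difference, so nothing is read from their counts against these shares. The combination that failed was a different one in most cases, namely water on day 5 for CG6733 and CG13325, ethanol on day 5 for CG13862, ethanol on day 2 for CG10560 and water on day 1 for CG5323. By day, the difference of Phf5a was 0.50, 0.52 and 0.60 on days 1, 2 and 5, that of Lime was -1.58, -1.25 and -1.15, and that of CG13325 was -1.96, -2.29 and -1.28. By exposure, the difference of CG6733 was 0.73 among ethanol-exposed and 0.38 among water-exposed larvae, that of CG5323 was 0.44 and 0.24, and that of QC was 0.54 and 0.71.

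**Figure D2:**
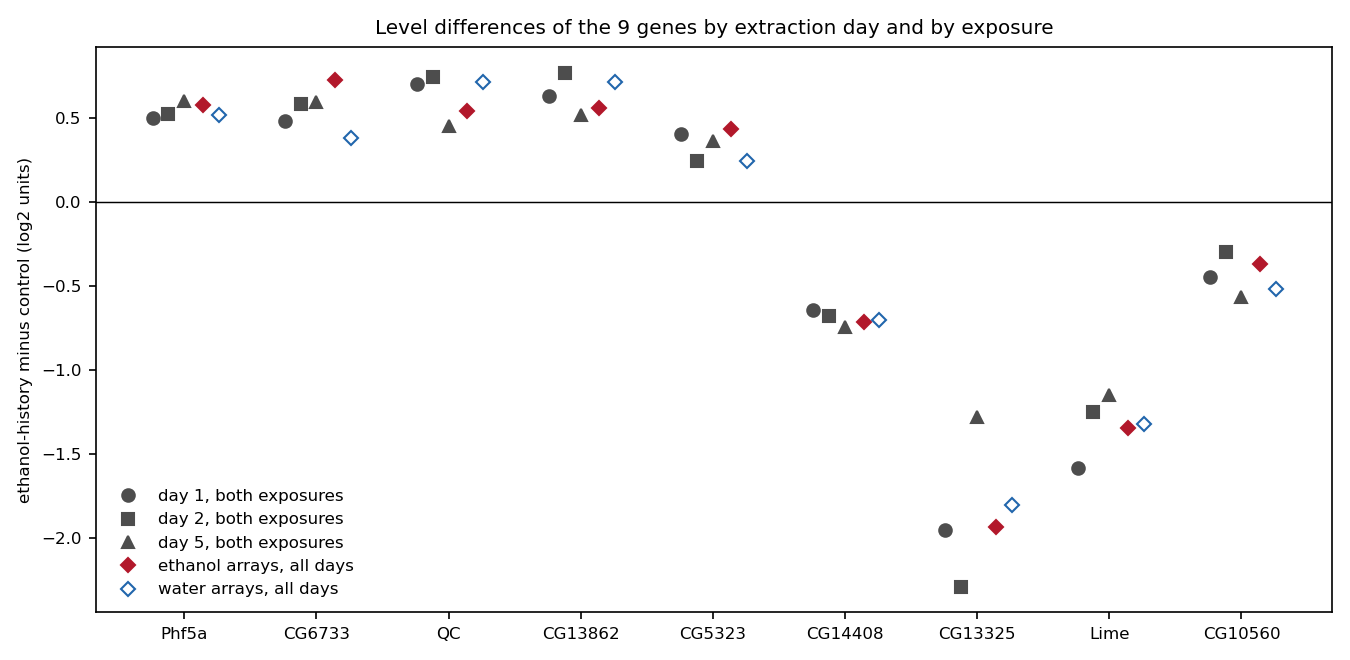
Difference in mean log2 expression, ethanol-history minus control populations (vertical axis), for the 9 genes, within each extraction day (grey symbols) and within ethanol-exposed (filled red) or water-exposed larvae (open blue). Each gene, chosen by this level difference on the same arrays, keeps its sign in all 5 subsets. CG13325 varies most, between -2.29 on day 2 and -1.28 on day 5.

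The 3 probe sets of CG14408 did not agree. On probe set 1634311_at the ethanol-history arrays ran from 8.09 through 8.58 to 9.10 log2 units, against 9.10, 9.29 and 9.44 on the control arrays, and the difference was -0.71 or 1.63-fold. Only the array of ethanol-exposed E2 on day 5, at 9.0995, reached the control range, whose lowest array was water-exposed R2 of day 5 at 9.0957. On probe set 1625335_at the same arrays gave 6.44 through 6.80 to 7.11, against 6.35, 6.88 and 7.21, and the difference was -0.08. On probe set 1628948_a_at they gave 4.48 through 4.71 to 4.88, against 4.47, 4.63 and 4.89, and the difference was 0.09, of the opposite sign.

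For 1625335_at and 1628948_a_at the population means overlapped, so they do not meet the rule, and their differences are close in size to the median over all tested probe sets, 0.08. Over the 34 arrays, after subtraction of the mean of each day, probe set 1634311_at correlated with 1625335_at at r = 0.12 and with 1628948_a_at at r = -0.24, and 1625335_at with 1628948_a_at at r = 0.34. These coefficients describe arrays that share populations and exposures. Which transcripts of CG14408 each probe set reads was not used here. The level difference therefore belongs to what 1634311_at reads and is not shown for the gene as a whole. No other member had a further probe set to compare. The difference of each other member therefore also belongs to what its probe set reads.

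**Figure D3:**
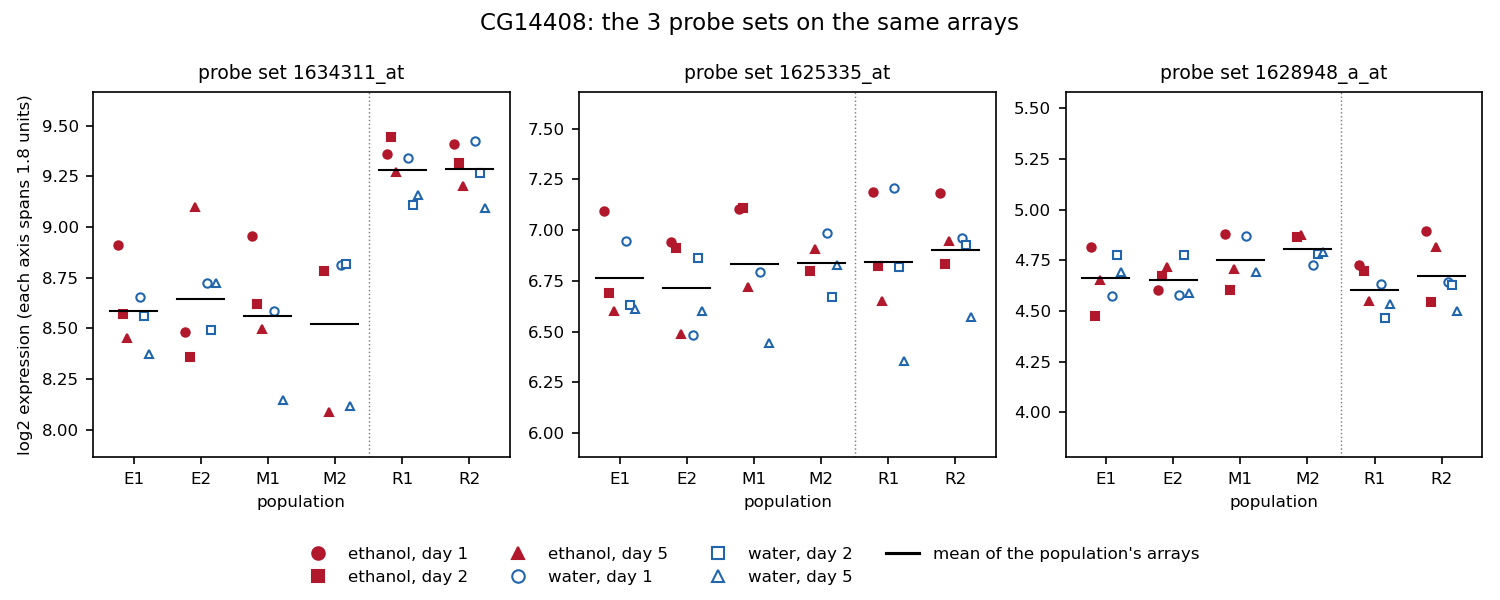
Log2 expression (vertical axis, each spanning the same number of log2 units) of the 3 CG14408 probe sets on each array by population (horizontal axis), with ethanol-history left and control populations right of the dotted line and bars at population means. Probe set 1634311_at separates the populations with a difference of -0.71, while the other 2 have differences of -0.08 and 0.09.

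The ethanol and variable regimes were compared with each other, a contrast the choice of genes did not use, with the population as the replicate. None of the 11 probe sets passed (limma adjusted p of 0.9998 for each), and neither did any of the 9729 (0%), of which 125 (1.28%) had an unadjusted p under 0.05. The differences, ethanol minus variable regime, ran from -0.13 ± 0.10 for probe set 1628948_a_at of CG14408 to 0.21 ± 0.23 for CG13325 (limma standard error). For Phf5a the regime means were 9.89 and 9.93, a difference of -0.04 ± 0.06, and for QC 10.52 in both, a difference of 0.0023 ± 0.0786. Without day 5, where regime labels are doubtful, none passed either (limma adjusted p of 0.9993 for each), and the differences ran from -0.15 ± 0.11 for probe set 1634311_at of CG14408 to 0.01 ± 0.09 for CG6733. Without that day Phf5a had -0.06 ± 0.09 and QC -0.09 ± 0.08. The sign turned for CG13325, at -0.15 ± 0.29 without day 5 against 0.21 ± 0.23 with it, and for Lime, at -0.13 ± 0.17 against 0.08 ± 0.18. It also turned for QC, CG6733, CG10560 and probe set 1634311_at of CG14408, so no order of the 2 regimes is held by these genes.

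Sister populations differed most in CG13325 and Lime. R1 was above R2 by 0.64 log2 units in CG13325, and E1 was below E2 by 0.51 in Lime. The difference in Lime includes the day 5 arrays, whose regime labels are doubtful. On days 1 and 2 alone each E1 array was also below each E2 array. In the other genes the 2 populations of a regime lay within 0.18 log2 units of each other.

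Whether these genes also respond to the exposure was tested on ethanol minus water over the 6 populations, which the choice of genes did not use. QC, Lime and CG10560 rose in ethanol-exposed larvae, CG6733 and CG5323 fell, and Phf5a, CG13862, CG13325 and the 3 probe sets of CG14408 did not pass. These are 5 of 11 probe sets, against 31.2% of all tested probe sets called in this comparison (15.2% higher and 16.0% lower), so the share is not far from that of the whole table. With the 6 population differences as replicates, the same 5 passed, with limma adjusted p from 0.000196 for QC to 0.0341 for CG5323. Probe set 1625335_at of CG14408 also passed there (limma adjusted p = 0.0375), and 2902 of the 9729 tested probe sets were called. Direction of response and of level difference were the same for QC alone among the called genes: Lime and CG10560 rose in ethanol but lay lower in ethanol-history populations, and CG6733 and CG5323 fell in ethanol but lay higher in them.

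QC rose most. In ethanol-exposed larvae its arrays ran from 10.65 through 10.81 to 10.97 in the ethanol-history and from 9.87 through 10.31 to 10.60 in the control populations, and in water-exposed larvae from 9.91 through 10.23 to 10.63 and from 9.24 through 9.53 to 9.85. Ethanol-exposed arrays were above the water-exposed array of the same population and day in 16 of 16 cases. The increase was 0.62 ± 0.06 log2 units or 1.54-fold (limma standard error, adjusted p = 2.34e-08), with a positive sign in 6 of 6 populations. Within days 1, 2 and 5 alone it was 0.54 ± 0.09, 0.81 ± 0.08 and 0.57 ± 0.11, and passed each time. Water-exposed ethanol-history larvae, at 10.23 ± 0.19 (SD, n = 11), were close to the level of ethanol-exposed control larvae, at 10.26 ± 0.25 (SD, n = 6).

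CG6733 fell by 0.46 ± 0.06 in ethanol (limma adjusted p = 8.81e-07), to a mean of 9.89 ± 0.45 in ethanol-exposed larvae against 10.37 ± 0.30 in water-exposed larvae (SD, n = 17 each). The sign was negative in 6 of 6 populations. R1 had the largest decrease, with an ethanol minus water difference of -0.96 ± 0.14, while the other 5 populations lay between -0.42 and -0.24. The decrease did not pass within day 1 alone (-0.35 ± 0.13, limma adjusted p = 0.139) and passed within day 2 (-0.51 ± 0.10) and day 5 (-0.58 ± 0.11).

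Lime rose by 0.40 ± 0.09 (limma adjusted p = 0.000953), to 7.17 ± 0.74 in ethanol against 6.80 ± 0.70 in water (SD, n = 17 each). All 6 populations had a positive sign, from 0.05 ± 0.20 in R1 to 0.75 ± 0.20 in R2. It passed within day 5 alone (0.56 ± 0.12) but not within day 1 (0.30 ± 0.17, limma adjusted p = 0.319) or day 2 (0.18 ± 0.10, limma adjusted p = 0.224). Of the 12 haemocyte markers 7 fell in ethanol and none rose, against 16.0% lower and 15.2% higher over all tested probe sets. NimC1 fell by 0.77 ± 0.11 among them, and their part in the change of Lime was not tested.

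CG10560 rose by 0.33 ± 0.05 (limma adjusted p = 3.09e-05), to 10.70 ± 0.25 in ethanol against 10.39 ± 0.34 in water (SD, n = 17 each), with a positive sign in 6 of 6 populations. Within day 1 alone it did not pass (0.24 ± 0.08, limma adjusted p = 0.102), and within days 2 and 5 it did (0.32 ± 0.08 and 0.42 ± 0.09). CG5323 had the smallest called change. It fell by 0.17 ± 0.05 (limma adjusted p = 0.00854), with a negative sign in 6 of 6 populations, to 11.06 ± 0.31 in ethanol against 11.23 ± 0.23 in water (SD, n = 17 each). Its call was lost without day 2 (adjusted p = 0.141), without R1 (adjusted p = 0.0501), without R2 (adjusted p = 0.069) and when the replicate block for day was dropped (adjusted p = 0.16), all by limma. Within days 1, 2 and 5 its change was -0.18 ± 0.10, -0.23 ± 0.05 and -0.14 ± 0.06, and it passed on day 2 alone.

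For Phf5a the difference between ethanol and water was -0.05 ± 0.05 (limma adjusted p = 0.444), for CG13862 -0.02 ± 0.08 (adjusted p = 0.894), for CG13325 -0.22 ± 0.19 (adjusted p = 0.405) and for probe set 1634311_at of CG14408 0.09 ± 0.08 (adjusted p = 0.379). Probe set 1625335_at of CG14408 was near the threshold, at 0.16 ± 0.06 (limma adjusted p = 0.0584), with a positive sign in 6 of 6 populations. In 4 of 21 alternative settings it passed, among them quantile normalization (adjusted p = 0.0452).

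**Figure D4:**
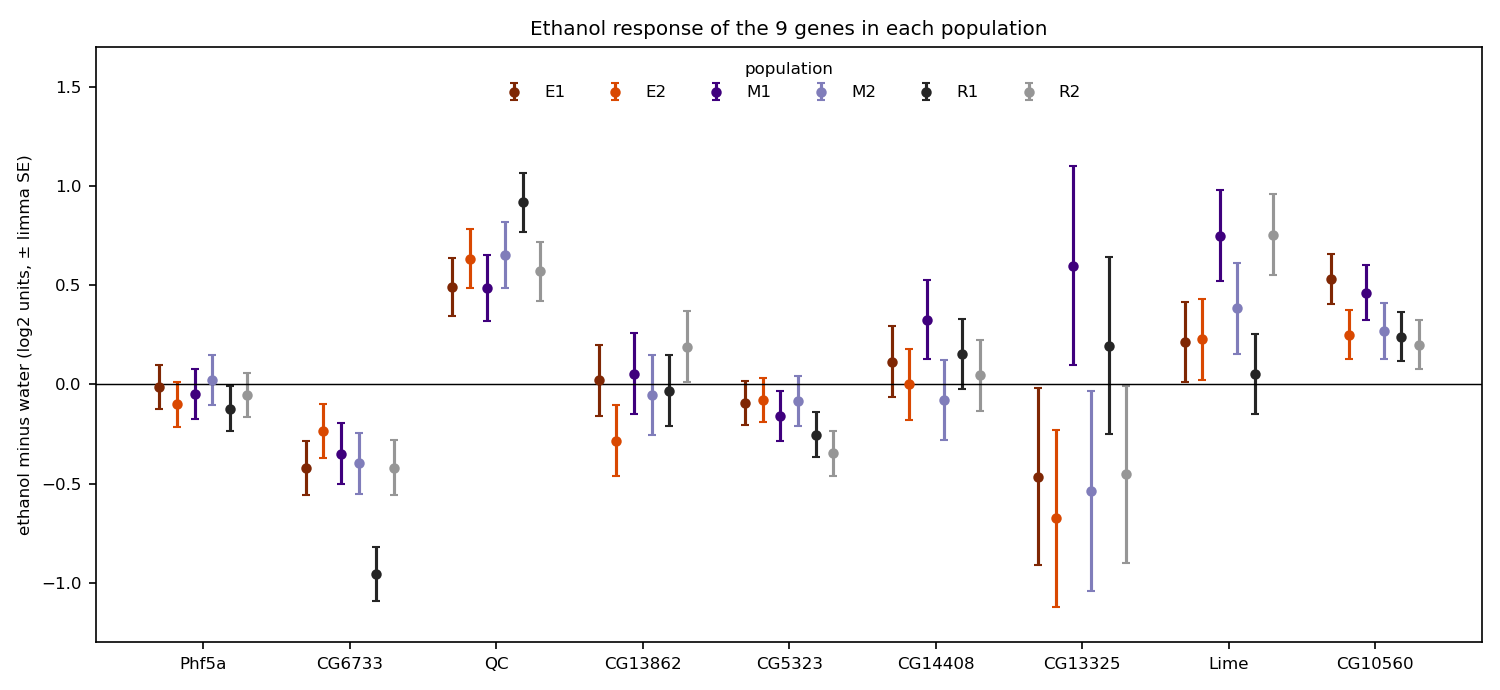
Difference between ethanol- and water-exposed larvae in log2 units (vertical axis) for each of the 9 genes and 6 populations, E1, E2, M1, M2, R1 and R2 from left to right within a gene, with bars for the limma standard error. QC lies above 0 in all 6 populations, between 0.49 and 0.92, and CG6733 below 0 in all 6, with R1 at -0.96.

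The response of the ethanol-history populations was then compared with that of the controls, with the population as the replicate. No probe set of the 9729 passed (0%, with 512, or 5.26%, at an unadjusted p under 0.05), and so none of the 11. The mean response of CG6733 was -0.35 in ethanol-history and -0.69 in control populations, a difference of 0.34 ± 0.17 (limma unadjusted p = 0.0836, adjusted p = 0.961). Without R1 that difference was 0.07, and without R2 it was 0.60. For CG5323 the responses were -0.10 and -0.30, a difference of 0.20 ± 0.10 (limma unadjusted p = 0.082, adjusted p = 0.961), and for QC 0.57 and 0.74, a difference of -0.18 ± 0.13 (limma adjusted p = 0.9997). Without R1 that of QC was -0.0056, and without R2 it was -0.35. For Lime the responses were 0.39 and 0.40, a difference of -0.01 ± 0.21, but the control mean joins 0.05 in R1 and 0.75 in R2, and the difference was -0.36 without R1 and 0.33 without R2. With 2 control populations, a comparison of responses has few degrees of freedom, and a p that misses the threshold does not show that the responses were alike.

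Genes next to the members were read because the choice did not use them. In the order of protein-coding genes of the RefSeq table, 3 genes on each side of a member give 54 genes, of which 38 were tested. For their level difference, ethanol-history minus control, 0 of 38 passed by limma, as did 0 of the 9729 (0%), and 5 of 38 had an unadjusted p under 0.05, against 10.5% of all tested probe sets. Population means separated in 10 of 38 neighbours, or 26.3%, against 23.8% of all tested probe sets, which is close to the background. The median size of the difference was 0.11 log2 units in the neighbours and 0.08 over all tested probe sets, and 23 of 38 had the sign of their member.

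CG6738, an M20 family gene directly beside CG6733, had the largest of these differences, in the opposite direction. Its ethanol-history arrays ran from 5.43 through 8.76 to 9.94 log2 units, against 9.49, 10.81 and 11.30 on the control arrays. Population means lay between 7.86 in M2 and 9.07 in M1, against 10.66 in R1 and 10.57 in R2. The arrays overlapped when pooled. In 6 of 6 combinations of day and exposure the ethanol-history arrays lay below both control arrays, where 0.216% of all tested probe sets separated in 6 of 6. CG6738 was named here for the largest difference of the 38 neighbours, so nothing is read from this count. The difference was -2.12 ± 0.43 (limma unadjusted p = 0.00384, adjusted p = 0.366) and so did not pass the correction. It lay between -2.42 and -1.84 over 19 alternative settings, with adjusted p from 0.285 to 0.741.

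CG12744, directly beside Lime, lay in the same direction as Lime, with a mean of 7.73 in ethanol-history against 8.29 in control populations, a difference of -0.56 ± 0.10 (limma unadjusted p = 0.00186, adjusted p = 0.356). Near QC, PolE2, a DNA polymerase epsilon subunit gene, had means of 4.62 and 4.07 and CG32409 of 9.96 and 9.68 in ethanol-history and control populations, differences of 0.55 ± 0.13 (limma unadjusted p = 0.0069) and 0.28 ± 0.07 (limma unadjusted p = 0.0103) with an adjusted p of 0.372 each. Near CG5323, CG10927 had a difference of 0.30 ± 0.11 (limma unadjusted p = 0.0341, adjusted p = 0.435). The genes tested around Phf5a and CG14408 lay between -0.30 and 0.18.

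**Figure D5:**
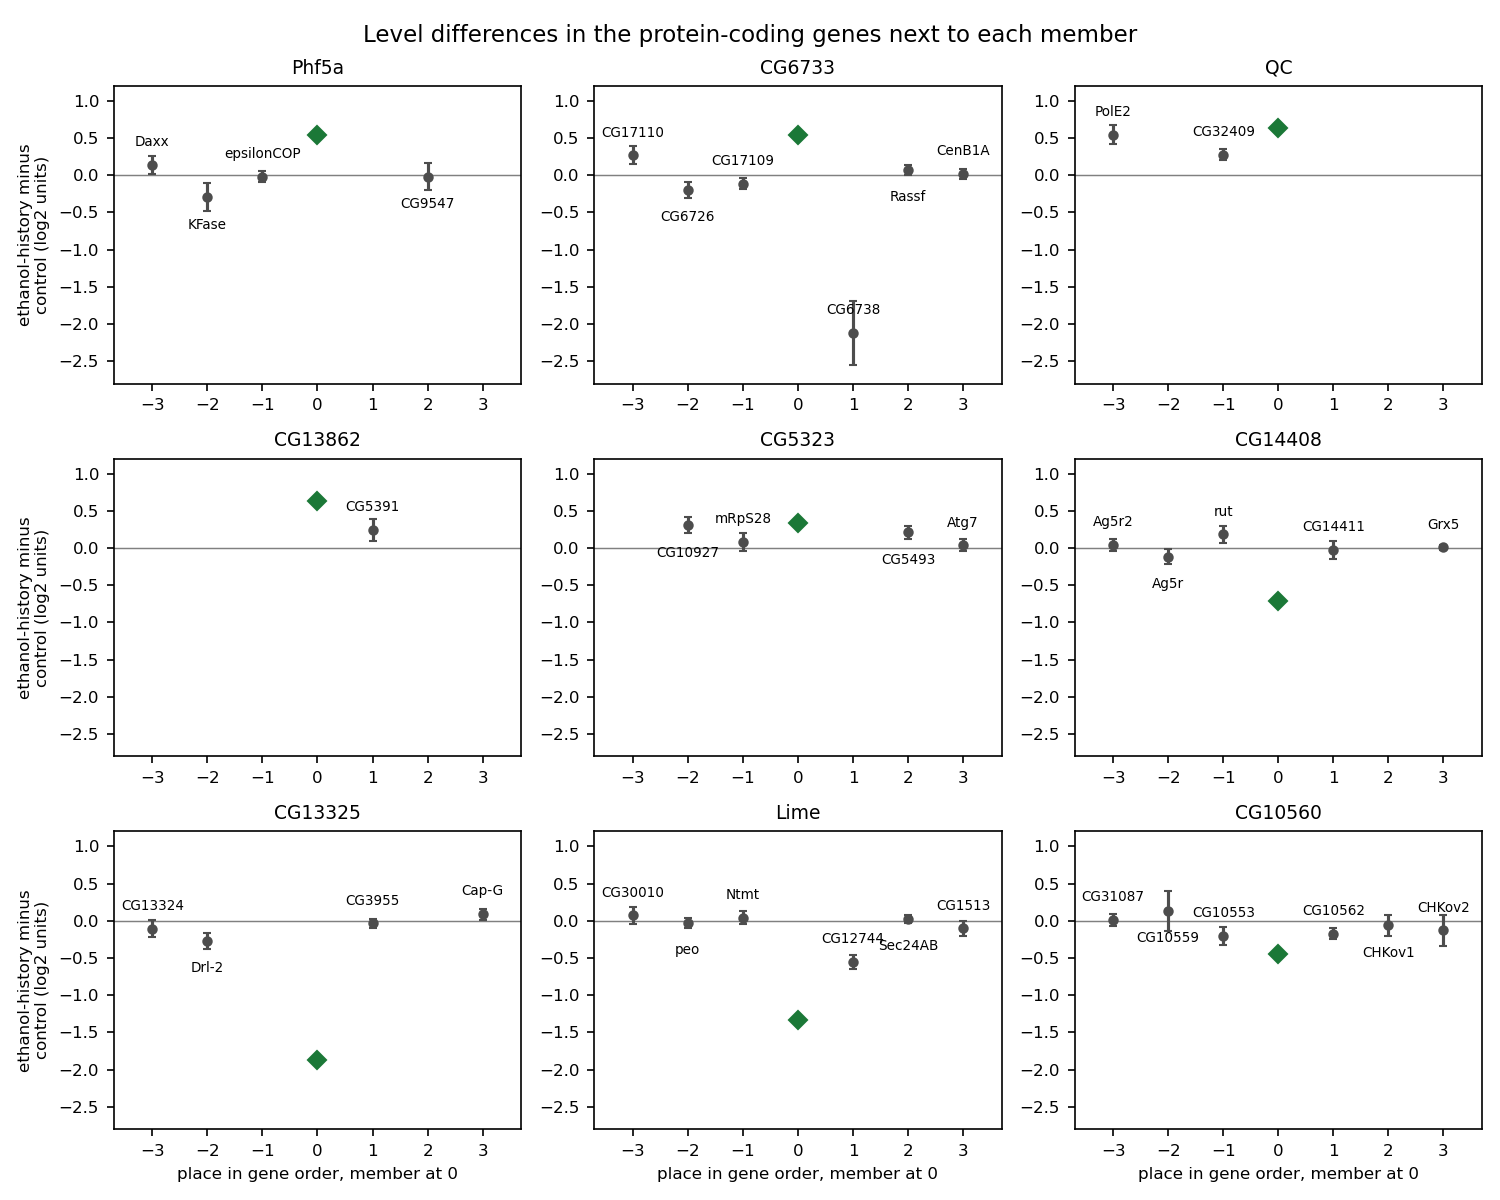
Difference in mean log2 expression, ethanol-history minus control populations (vertical axis), of the tested protein-coding genes up to 3 places either side of each member (horizontal axis, place in gene order), with bars for the limma standard error. Green diamonds are the members, drawn without error because they were chosen by this difference, and grey points the neighbours, of which CG6738 beside CG6733 lies furthest from 0 at -2.12.

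Related genes were read from lists of the members' families and complexes. Of 18 tested genes for other SF3a, SF3b, U2 and Sm proteins, the partners of Phf5a in the spliceosome, 0 passed for the level difference, 7 had an unadjusted p under 0.05 and 10 had separated population means, against 10.5% and 23.8% of all tested probe sets. The median difference was 0.17 log2 units, against 0.0049 over all tested probe sets, and the differences of all 18 are smaller than the 0.54 of Phf5a. SmE was at 10.67 in ethanol-history and 10.47 in control populations (0.20 ± 0.05, limma unadjusted p = 0.00731, adjusted p = 0.372), and SmB, with the largest difference of the list, at 6.43 and 6.16 (0.27 ± 0.08, limma unadjusted p = 0.0177, adjusted p = 0.401). In ethanol-exposed larvae 11 of the 18 fell and 1 rose, against 16.0% lower and 15.2% higher over all tested probe sets, where Phf5a did not pass. SmB fell by 0.45 ± 0.07, Sf3b3 fell by 0.28 ± 0.05 and SmE fell by 0.27 ± 0.04, and Sf3a1 was the one that rose, by 0.42 ± 0.06.

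Of the 4 other M20 aminoacylase-like genes, all of them neighbours of CG6733, none passed for the level difference, and CG17110 fell in ethanol by 0.43 ± 0.08 (limma adjusted p = 0.000105). The second glutaminyl cyclase gene, isoQC, was at 6.71 in ethanol-history and 6.70 in control populations, and it fell in ethanol by 0.20 ± 0.07 (limma adjusted p = 0.0241), where QC rose. Of 35 tested ecdysteroid kinase-like genes other than CG10560, 0 passed for the level difference, 6 had an unadjusted p under 0.05 and 10 had separated population means, against 10.5% and 23.8% of all tested probe sets, with a median difference of -0.13 log2 units against 0.0049. JhI-26, a juvenile hormone-inducible gene of this family, was at 10.58 in ethanol-history and 10.93 in control populations (-0.35 ± 0.04, limma unadjusted p = 0.000178, adjusted p = 0.166). In ethanol 8 of the 35 rose and 6 fell, near the shares of 15.2% and 16.0% over all tested probe sets, and these 4 had the smallest p-values: CG33510 fell by 1.40 ± 0.13, CG6830 fell by 1.05 ± 0.08, CG31974 fell by 0.62 ± 0.08 and CG11892 rose by 0.70 ± 0.08.

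The genes with the most similar pattern were found by Pearson's r over the 34 arrays after subtraction of each day's mean, so that shared populations and exposures enter the value. The choice of members by 1 shared split fixes much of r between them, and nothing is read from it: r was -0.86 between Phf5a and probe set 1634311_at of CG14408, 0.79 between Phf5a and CG13862, 0.86 between that probe set and Lime, and -0.81 between CG6733 and CG10560. After removal of the means of each population and exposure as well as the day, the same r values were -0.28, 0.07, 0.39 and -0.27. Over all pairs of member probe sets, the largest r in size left by this removal was 0.70, between Phf5a and CG5323 (0.85 before it). The next was -0.54, between probe set 1634311_at of CG14408 and CG6733 (-0.74 before it). Beyond the members, whose values the same split also enters, CG11562 was nearest to Phf5a (r = 0.88), CG17036 to Lime (r = -0.89), the histone demethylase gene Kdm5 to CG14408 (r = 0.86) and CG16995 to CG13325 (r = 0.82). CG6733 was nearest to the replicative helicase gene Mcm5 (r = 0.85), CG5323 to the deoxyhypusine synthase gene Dhps (r = 0.87), QC to CG4594 (r = 0.86), CG13862 after Phf5a to Nelf-E, a subunit of the negative elongation factor (r = 0.78), and CG10560 after CG6733 to the serpin gene Spn43Ad (r = 0.80). QC also stood close to CG6830 of the ecdysteroid kinase-like family, with the opposite sign (r = -0.86).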

How the data were processed

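Expression was measured in 34 of the 35 hybridised samples; GCRMA and affy are named in the submitters' processing notes, with no version or genome build, so no coordinates or sequences appear. The authors deposited log2 values per probe set. Each array's group and number come from its title; the number was taken as the extraction block, since per the labels RNA was extracted on 3 days, each covering the populations and exposures once. Mean correlations of deviations from group means were 0.394, 0.184 and 0.423 within days 1, 2 and 5 and -0.167 between days, so day is a block in each fit. No label ties arrays of a population to separate cultures, so exposure p-values measure the spread between these RNA samples, except where population differences are named as the replicates. Precision is limited by the number of arrays and populations.

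R 4.3.3 and limma 3.58.1 were run on the 9729 probe sets with a value of at least 4 on at least 5 arrays, two-sided, with an intensity trend and Benjamini-Hochberg adjustment at 0.05. Exposure was fitted over the 34 arrays with a mean for each population and exposure. Regimes were compared with 6 population values (levels or responses) as replicates. The fits were tested on simulated data.

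Symbols come from the platform annotation, updated through the RefSeq table: 13647 probe sets list 1 gene, 402 several, and 4720 are unnamed here. For each gene the probe set with the highest mean was read. Named are all members, the 2 genes most similar to each, the 3 neighbours on each side and, per list, up to 4 genes with the smallest p for exposure; genes named for a level difference were chosen after their values were seen. The members and lists were chosen with earlier results of these data known. Relatives by protein alignment were not analysed here. Alternatives were no filter or a mean of at least 6, no day block, median centring, quantile normalization, no trend or robust moderation, and 1 probe set per gene. Days, populations or exposures were also left out or taken alone, and for exposure the 6 population differences were taken as replicates.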

Additional observations from a re-analysis of the deposited data

Results flagged for a closer look

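Single arrays that stood apart were sought in the 66 groups of regime and exposure of the 11 probe sets, and 3 groups had one, about the share of 1 in 20 that chance gives. For CG13862 in water-exposed variable larvae, M2 on day 2 was at 10.315, while the other 4 arrays lay between 9.33 and 9.56. For CG13862 in ethanol-exposed control larvae, R1 on day 1 was at 8.4146, while the other 5 arrays lay between 9.03 and 9.27. For CG6733 in water-exposed variable larvae, M1 on day 5 was at 10.214, while the other 4 arrays lay between 10.55 and 10.68.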

How the results depend on the processing

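The level differences of the 9 genes kept their sign under all 19 alternatives with a value for them (left-out days or populations, 1 exposure alone, other scalings and filters). These alternatives reuse the arrays whose level difference chose the genes, so the kept signs are a description and no independent support. The differences ran from 0.51 to 0.57 for Phf5a and from -2.20 to -1.56 for CG13325, the CG13325 extremes without R2 and without R1. The count of exposure calls was 3037, and it was 627 within day 1 alone, 1299 within day 5 alone and between 1797 and 2774 with 1 day left out. It was 2154 in the fit without the replicate block, which lost the call of CG5323 and no other among the 9 genes. Leaving out the day 5 arrays of the ethanol and variable populations, a choice made after seeing the data, gave 2474 calls and kept those of QC, CG6733, Lime, CG10560 and CG5323. The 0 calls for the response of ethanol-history against control populations, for the ethanol against the variable regime and for the neighbours stayed at 0 under each alternative run, the fit without the replicate block included. Over all probe sets the level of ethanol-history against control gave 1 call without day 5 and 1 without E2, against 0 otherwise. No called change of a member turned its direction.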
